A study of Mus musculus with 18 samples.

Results

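Myom2, Ankrd1 and Ankrd2 encode 3 proteins of the striated muscle sarcomere, and each was read by 1 probe set, so that 3 of the 12488 probe sets on the array are described here. They were chosen by gene symbol, as genes that seemed low in mdx extraocular muscle and seemed to move there in dko. That choice used the extraocular arrays, and the extraocular values below are therefore a description with no test. The differences between dko and mdx in leg muscle and in heart were not part of it. The mdx leg and heart arrays, however, are those beside which the genes seemed low. The choice could thus have favoured high mdx readings in leg and heart. Myom2 and Ankrd1 show this pattern on the same arrays, which follows from the choice. Ankrd2 does not show it. That gene read lowest in heart and did not differ between dko and mdx extraocular muscle by more than the spread between arrays.

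The series holds 18 Affymetrix mouse arrays of total RNA in 6 groups of 3, all from mice aged 8 weeks: extraocular muscle, which turns the eyeball, of dko and of mdx mice, and leg muscle and heart of both genotypes. Mdx mice lack dystrophin, the protein that ties the actin cytoskeleton of a muscle fibre to its membrane, and are named as the control by the labels. By usual usage dko mice lack dystrophin and also its relative utrophin, so that all 6 groups share the loss of dystrophin and none is healthy muscle; no label expands the term. Which leg muscles were taken, whether tissue was pooled and whether replicates are separate animals are not stated. All p-values below therefore rest on a spread between samples that could be technical.

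The median intensity of an array was 525.6 to 573.75 for the 6 arrays numbered 3 and 612.6 to 671.8 for the other 12, so that number 3 stood apart in every group. Of the probe sets for Utrn, the utrophin gene, the first gave 220.2 to 414.3 in dko extraocular muscle and 553.3 to 1086.5 in mdx, 239.6 to 298.2 in dko and 437.6 to 550.7 in mdx leg, and 219.9 to 292.3 in dko and 587.6 to 672.1 in mdx heart, with no overlap in any tissue. The other did not overlap in extraocular muscle or heart and did in leg (233 to 645.7 in dko and 437.8 to 738.2 in mdx). The tissue labels fitted their markers. The summed intensity of 11 cardiomyocyte genes was 7604 to 13912 in the skeletal groups and 139397 to 395004 in heart, and that of 13 fast-fibre genes was 84522 to 456611 in the skeletal groups and 8125 to 14280 in heart. None of these markers was listed at 0.

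Myom2 encodes M-protein (myomesin 2), which crosslinks myosin filaments at the M-band in the middle of the sarcomere and is known as a component of fast skeletal fibres and of heart. Mouse extraocular muscle is known for fibres in which the M-band is poorly developed. Ankrd1 and Ankrd2 encode muscle ankyrin repeat proteins, which bind the spring region of titin in the I-band and can also enter the nucleus, where they act as cofactors of transcription. Ankrd1, also called cardiac ankyrin repeat protein, is abundant in heart muscle and is induced in skeletal muscle by injury, denervation and overload. Ankrd2 is a skeletal muscle gene, known to be higher in slow fibres and to be induced by stretch.

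The genes of the ankyrin repeat pair lie on the same chromosome and differ in tissue. In the mouse assembly GRCm38.p6 Ankrd1 spans chr19:36111965-36119844 and Ankrd2 spans chr19:42035917-42045111, while Myom2 spans chr8:15057653-15133420. RefSeq's promoter table (build GRCm38.p6), which gives 250 bases before and 50 bases after a gene's start, held 2 of the 3 members. Both windows are shown because, of this pair, Ankrd2 was higher and Ankrd1 lower in leg than in heart. The Ankrd1 window is chr19:36119795-36120094 on the minus strand, and the Ankrd2 window is chr19:42035777-42036076 on the plus strand. Capitals mark the M-CAT core CATTCC, the site of TEAD factors, and the E-box CANNTG, the site of myogenic factors, both searched on both strands.
Ankrd1: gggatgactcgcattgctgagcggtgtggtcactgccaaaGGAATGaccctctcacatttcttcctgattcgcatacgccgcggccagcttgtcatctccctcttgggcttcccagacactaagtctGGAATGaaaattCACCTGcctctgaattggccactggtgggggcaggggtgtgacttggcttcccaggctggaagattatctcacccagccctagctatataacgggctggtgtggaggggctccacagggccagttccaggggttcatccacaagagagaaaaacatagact
Ankrd2: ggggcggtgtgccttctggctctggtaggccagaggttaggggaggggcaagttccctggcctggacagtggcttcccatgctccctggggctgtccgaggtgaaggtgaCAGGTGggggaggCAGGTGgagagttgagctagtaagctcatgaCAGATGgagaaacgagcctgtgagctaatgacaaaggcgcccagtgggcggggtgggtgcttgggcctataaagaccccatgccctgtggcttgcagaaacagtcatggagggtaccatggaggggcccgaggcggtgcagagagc
The Ankrd1 window held 2 M-CAT cores, both on the opposite strand and read here as GGAATG, which begin 210 and 123 bases before the start, and 1 E-box 111 bases before it. The Ankrd2 window held 0 M-CAT cores and 3 E-boxes, at 140, 127 and 96 bases before the start. An M-CAT core was present in 14.7% and an E-box in 72.3% of all 32851 promoter windows of this length. The GATA motif AGATAA matched 1 time in the Ankrd1 window, 47 bases before the start (in 11.2% of all windows), and the TATA box TATAAA 1 time in the Ankrd2 window, 29 bases before it (in 13.6%). Only that exact string was searched, and the printed Ankrd1 window holds the similar tatataa. No difference in TATA boxes between the windows is read from this. None of the matches overlapped another. The AP-1 motif TGANTCA, the Nkx2-5 motif TNAAGTG, the MEF2 motif and the CArG box had 0 matches in either window and occurred in 7.81%, 11.5%, 3.19% and 1.63% of all windows. A match is a run of letters and does not show that a factor binds there.

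In extraocular muscle the M-band gene and the cardiac ankyrin gene were several times higher in dko than in mdx, and Ankrd2 was not. Myom2 read 1506.6, 1433.4 and 1128.3 in dko extraocular muscle on arrays 1, 2 and 3, against 352.4, 433 and 478.5 in mdx. Every dko array lay above every mdx array, and the ratio of the means was 3.22. On the scale used for the fits, log2 of the intensity plus an offset of 166.7 that damps differences between dim values, the difference was 1.37. Ankrd1 read 1227.5, 1503.4 and 1703.8 in dko, against 219.2, 440.1 and 596.2 in mdx. These groups did not overlap either, with a ratio of 3.53 and a log2 difference of 1.54. Among all 8888 probe sets tested, 5.65% had extraocular groups that did not overlap, and nothing is read from that share, since the genes were chosen on these arrays. Ankrd2 read 1585.8, 2048.2 and 1803.8 in dko, against 1503.5, 1799.7 and 1866.5 in mdx. Its groups overlapped, and its log2 difference of 0.065 turned to -0.021 without mdx array 1 and to -0.019 without dko array 2.

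The mdx extraocular readings of Myom2 and Ankrd1 were at or under the middle of the array, so that their ratios rest on weak signals. Myom2 was brighter than 36.3 to 46.8% of the probe sets on the same mdx arrays, and than 66.5 to 70.2% on the dko arrays. Ankrd1 was brighter than 28.1 to 51.9% on the mdx arrays and than 65.4 to 75.3% on the dko arrays. The deposited values carry no detection calls. Both genes also had their largest difference in the pair numbered 1 and their smallest in the pair numbered 3: 1.69, 1.42 and 1.01 for Myom2 and 1.85, 1.46 and 1.29 for Ankrd1, on the log2 scale. With arrays 1 and 2 only, the differences were 1.55 for Myom2 and 1.66 for Ankrd1.

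**Figure D1:**
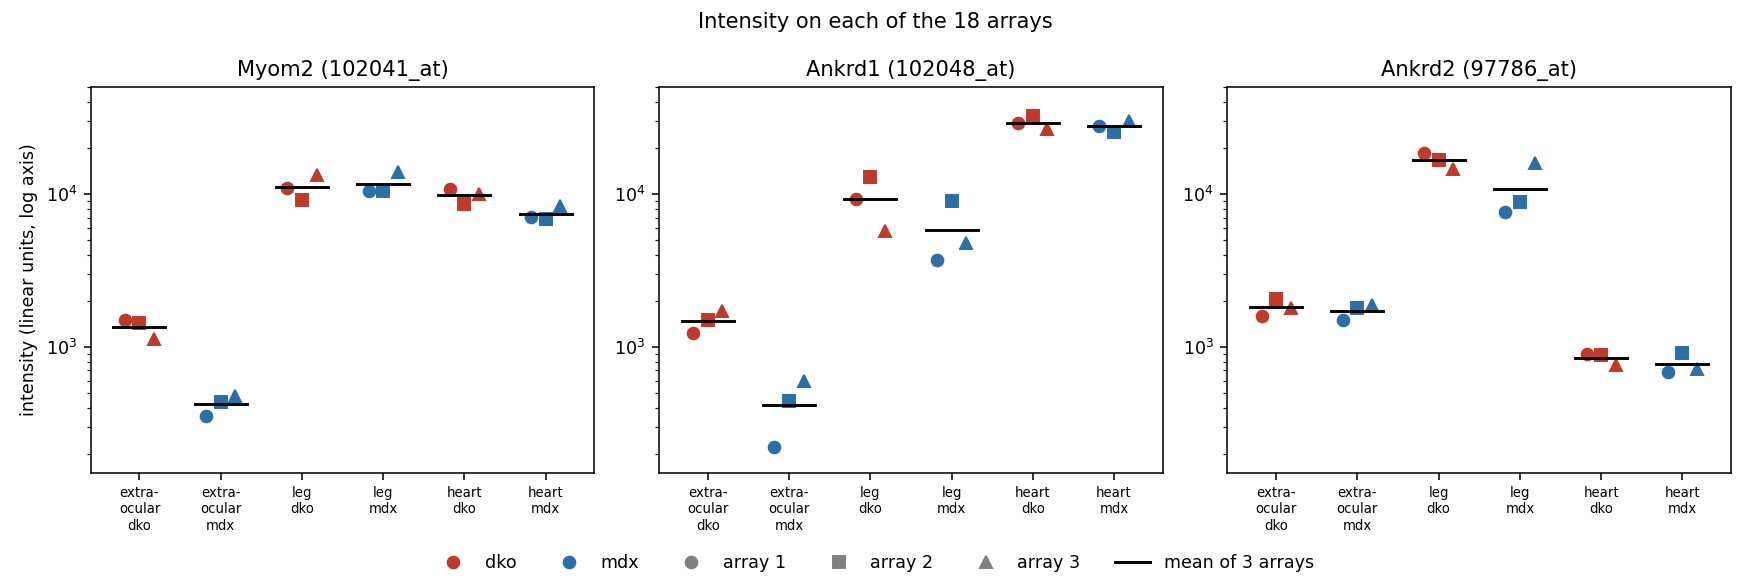
Intensity of the 3 genes on each of the 18 arrays, on a log axis, with dko in red left of mdx in blue in each tissue, marker shapes for the replicate numbers and bars for the means of 3 arrays. Myom2 and Ankrd1 are lowest in mdx extraocular muscle, whereas Ankrd2 is highest in leg and lowest in heart.

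Summed macrophage markers also separated the same extraocular samples, and summed gland markers did so by a narrow margin. The summed intensity of 16 macrophage genes was 53980 to 59365 in dko and 22302 to 28263 in mdx extraocular muscle, without overlap. By their brightest probe sets 15 of the 15 tested were higher in dko, with a median log2 difference of 0.96 against -0.006 over all probe sets (1 passed without and 3 with the block on replicate number). Another probe set of Csf1r and of C1qb had the opposite sign. The sums of slow-fibre genes (110230 to 261667 in dko, 113535 to 220312 in mdx) and of fast-fibre genes (161859 to 423544 and 195787 to 358843) overlapped. So did those of regenerating-fibre genes (87949 to 130207 and 73168 to 109548). Lacrimal and Harderian gland genes summed to 2402 to 3563 in dko and 3618 to 5286 in mdx, and 0 of 6 were higher in dko (median -0.32, none past the threshold). The largest difference among the 6 was that of Krt19 (193.8 ± 115 in dko and 813.2 ± 547 in mdx). In leg and heart, which hold no such gland, the same sums ran from 1751 to 3225 and overlapped the dko extraocular range. Whether the sums reflect gland tissue was not tested. Cardiomyocyte genes summed to 7859 to 13002 in dko and 12427 to 13912 in mdx. In whole tissue, a change in the share of fibres that make a transcript and a change in transcript per fibre cannot be told apart. The part of the other cell types in the Myom2 and Ankrd1 differences was not tested.

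In leg muscle both ankyrin repeat genes read higher in dko on average, and Myom2 did not. Ankrd2 read 18446.8, 16826.2 and 14570.4 in dko leg, against 7600.6, 8849.3 and 16026.1 in mdx leg. The lower mdx readings came from arrays 1 and 2, and mdx array 3 fell inside the dko range, so that the groups overlapped. Its mean was 16610 ± 1950 in dko and 10830 ± 4550 in mdx (SD, n = 3 each), a log2 difference of 0.68 (standard error 0.24, 95% interval 0.18 to 1.18), with dko higher in 2 of 3 numbered pairs. The limma fit over all probe sets gave an unadjusted p of 0.0112 and an adjusted p of 0.519, and with arrays 1 and 2 only the difference was 1.09 (adjusted p = 0.153).

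Ankrd1 read 9334.7, 12904.2 and 5733.7 in dko leg, against 3691.7, 9000 and 4750.4 in mdx leg. Array 2 was the highest in both genotypes, and the groups overlapped, while dko was higher in 3 of 3 pairs. The means were 9324 ± 3590 in dko and 5814 ± 2810 in mdx (SD, n = 3 each), a log2 difference of 0.69 (standard error 0.33, 95% interval -0.015 to 1.40, limma adjusted p = 0.82). Single arrays moved it by over 1.5 times, to 1.05 without mdx array 2, 0.424 without dko array 2 and 0.425 without mdx array 1. With the replicate number as a block the adjusted p was 0.123, and the largest of the 3 pair differences, 1.30, was that of number 1.

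Myom2, with 10932.7, 9097.2 and 13350.2 in dko leg against 10448.7, 10520.2 and 13881.6 in mdx leg, had a log2 difference of -0.066 (95% interval -0.48 to 0.35). The groups overlapped, and the sign turned without dko array 2 (0.068) or mdx array 3 (0.067). In all, 0 of the 3 members passed in leg at an adjusted p of 0.05 by limma, with or without the block. Without it, 1 had an unadjusted p under 0.05, where 556 of 8888 probe sets did. With it 2 did, but the count over all probe sets with the block was not taken, so that nothing is read from the 2. Over all probe sets 0.0563% passed without and 1.2% with the block, and 9.95% had leg groups that did not overlap. The interval of Ankrd2 and most of that of Ankrd1 lie above 0, but both use a spread shared by all 6 groups. In a fit of the leg arrays alone the standard error was 0.315 for Ankrd2 and 0.416 for Ankrd1, against 0.236 and 0.333. Neither gene passed after adjustment in either fit.

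Summed slow-fibre and smooth muscle markers also separated the leg samples, while those of regenerating-fibre, macrophage, fast-fibre and matrix genes overlapped. Slow-fibre genes summed to 101468 to 145919 in dko leg and 27898 to 39179 in mdx leg, without overlap, and 9 of 9 were higher in dko (median log2 difference 1.70), 1 of them past the threshold without and 7 with the block. Genes of regenerating fibres summed to 93815 to 125529 in dko and 62082 to 99775 in mdx, and 1 of 14 passed without and 6 with the block. Among the 6 was Myl4, whose other probe set had the opposite sign. Macrophage genes summed to 60141 to 121408 in dko and 31629 to 62520 in mdx, and 0 of 15 passed without and 4 with the block. Among the 4 were Csf1r and C1qb, for each of which the other probe set had the opposite sign. Fast-fibre genes ran from 146570 to 305838 in dko and from 84522 to 456611 in mdx. Smooth muscle genes summed to 22148 to 24734 in dko leg and 17337 to 19643 in mdx leg, without overlap, and 0 of 7 passed. Fibroblast and matrix genes overlapped in their sums (137889 to 189887 in dko and 93457 to 198136 in mdx). By their brightest probe sets 10 of 10 were higher in dko, 1 of them past the threshold (Postn, 1.24, limma adjusted p = 0.0475). Another probe set of Col1a1, of Col1a2 and of Pdgfra had the opposite sign. The part of fibre type and other cells in the Ankrd2 and Ankrd1 readings was not tested.

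In heart the only member whose groups separated was Myom2. It read 10791.4, 8655.6 and 10075.4 in dko heart, against 7120.9, 6833.2 and 8328.5 in mdx heart, and every dko array lay above every mdx array. Its mean was 9841 ± 1090 in dko and 7428 ± 793 in mdx (SD, n = 3 each), a log2 difference of 0.40 (1.32-fold; 95% interval -0.02 to 0.82), with dko higher in 3 of 3 pairs. This did not pass (limma adjusted p = 1, and 0.86 with the block; unadjusted p = 0.0606), and 3.92% of all probe sets had heart groups that did not overlap. Leaving out the arrays numbered 3 gave 0.46.

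Ankrd1 was very bright in heart in both genotypes, with 28991.8, 32356.9 and 26780.2 in dko against 27884.2, 25375.5 and 30184.7 in mdx. The groups overlapped, and the log2 difference was 0.078 (95% interval -0.63 to 0.78). It lay above at least 98.6% of the probe sets on every heart array, with readings of up to 32356.9. The brightest probe set of an array read 33355.1 to 47588.9 on the arrays numbered 1 and 2 and 47023.9 to 74433.7 on those numbered 3. Whether Ankrd1 was saturated in heart was not tested, so that its difference there and its folds between leg and heart hold for these readings only. Ankrd2 was faint, at 900.7, 878.9 and 758.4 in dko against 688.7, 907.8 and 710.8 in mdx. It too overlapped, with a log2 difference of 0.12 (95% interval -0.38 to 0.62). In heart, 0 of 3 members passed by limma, and 0% of all probe sets did, with or without the block. Without it, 0 members had an unadjusted p under 0.05, where 130 of 8888 probe sets did. With it 1 member did, and the count over all probe sets with the block was not taken.

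**Figure D2:**
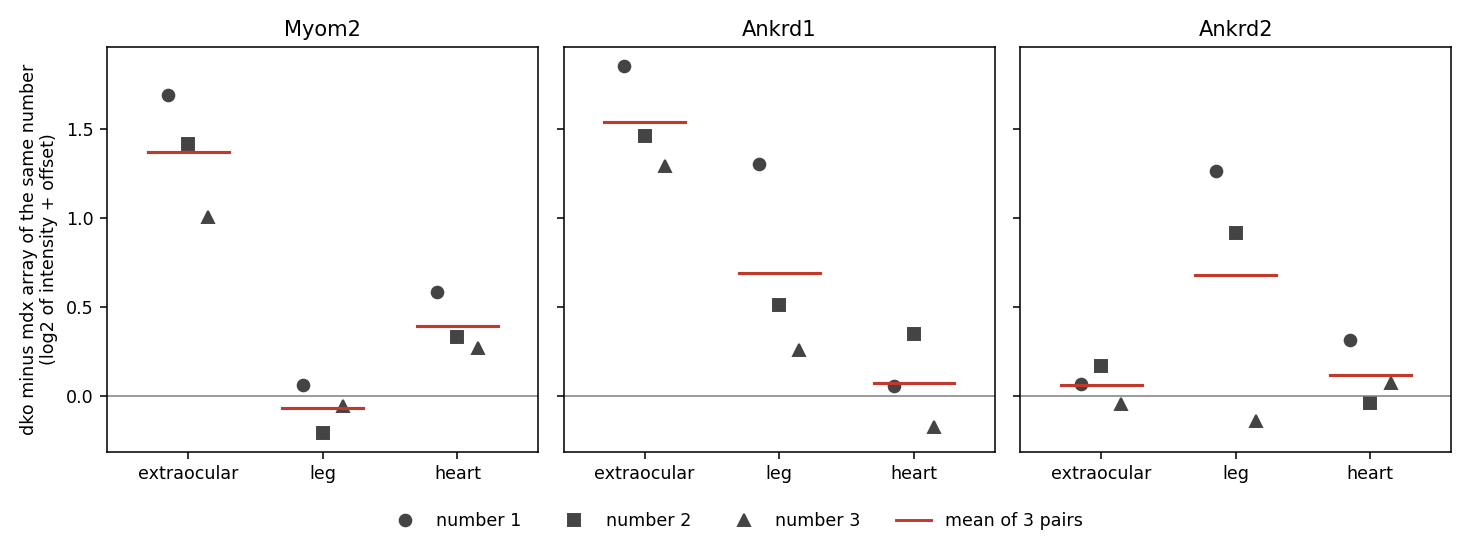
Difference between the dko and the mdx array of the same number, in log2 of intensity plus offset, for each gene and tissue, with red bars for the mean of 3 pairs. Myom2 and Ankrd1 lie at or above 1.0 in all extraocular pairs, while in leg only Ankrd1 is above 0 in 3 of 3 pairs and in heart only Myom2.

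Taking leg and heart as 1 comparison, no member passed. The mean log2 difference of the 2 tissues was 0.17 for Myom2 (dko higher in 4 of 6 pairs), 0.39 for Ankrd1 (5 of 6) and 0.40 for Ankrd2 (4 of 6). The limma adjusted p was 1 for each without the block and 0.532, 0.287 and 0.309 with it, where 0.0113% and 0.0788% of all probe sets passed. An exact permutation test, two-sided, that exchanged genotype labels inside each tissue, 1 for each of the 3 probe sets and unadjusted, gave p = 0.23 for Myom2, 0.145 for Ankrd1 and 0.08 for Ankrd2, where 0.005 is the smallest that 400 assignments can give. Exchanging genotypes within the 6 pairs gave exact p-values of 0.188, 0.0938 and 0.188, with 0.0312 the smallest possible. The labels do not say whether leg and heart came from the same mice, and if they did these p-values are too small. The dko-mdx difference in leg was not separable from that in heart for any member, at -0.46 for Myom2, 0.61 for Ankrd1 and 0.56 for Ankrd2 (limma adjusted p = 1 for each; 95% intervals -1.05 to 0.13, -0.39 to 1.61 and -0.15 to 1.27), where 0% of all probe sets passed without the block and 0.0675% with it (259 had an unadjusted p under 0.05 without it). Leaving out 1 array moved these differences to between -0.601 and -0.329, 0.346 and 0.972, and 0.349 and 0.878, the highest for Ankrd1 without mdx leg array 2 and for Ankrd2 without mdx leg array 3.

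The tissues themselves set the 2 ankyrin genes apart. Ankrd2 was higher in leg than in heart, by 4.05 on the log2 scale among dko arrays (ratio of means 19.6, limma adjusted p = 8.31e-09) and by 3.49 among mdx arrays (ratio 14.1, adjusted p = 5.15e-08). Ankrd1 was lower in leg than in heart, with log2 differences of -1.71 among dko arrays (heart 3.15 times leg by the means, adjusted p = 0.00245) and -2.32 among mdx arrays (heart 4.78 times leg, adjusted p = 0.000165). Leg and heart arrays did not overlap for either gene in either genotype, as was so for 24.2% of all probe sets in dko and 23.3% in mdx. With arrays 1 and 2 only, Ankrd2 differed by 4.07 in dko and 3.13 in mdx and Ankrd1 by -1.47 and -2.17, all still past the threshold.

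Myom2 was higher in leg than in heart on average in both genotypes. The log2 difference was 0.16 among dko arrays, where the tissues overlapped (adjusted p = 0.77; 95% interval -0.25 to 0.58). Among mdx arrays it was 0.63, with every leg array above every heart array (leg 1.56 times heart). That difference did not pass without the block (limma adjusted p = 0.0566) and passed with it (0.0123), and the call with the block ended when the arrays of any 1 number were left out (adjusted p = 0.0578 to 0.113). Thus 2 of 3 members passed between leg and heart in dko, where 10.7% of all probe sets did (5.54% higher and 5.16% lower in leg), and the same number with the block, where 23.5% did (11.5% higher and 12% lower). In mdx 2 passed without the block, where 9.97% of all probe sets did (4.93% higher and 5.04% lower), and 3 with it, where 22.8% did (11.1% higher and 11.7% lower). The mdx leg and heart arrays are also those beside which the members had seemed low in extraocular muscle.

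Across the 6 groups the order of the means differed for each gene. For Myom2 it was mdx leg, dko leg, dko heart, mdx heart, dko extraocular and mdx extraocular muscle, and the arrays of neighbouring groups overlapped for mdx leg with dko leg and for dko leg with dko heart. For Ankrd1 it was dko heart, mdx heart, dko leg, mdx leg, dko extraocular and mdx extraocular muscle, with overlap between the heart groups and between the leg groups. For Ankrd2 it was dko leg, mdx leg, dko extraocular, mdx extraocular, dko heart and mdx heart, with overlap between the genotypes of each tissue. Dko extraocular muscle, although higher than mdx, stayed well under leg and heart for Myom2 and Ankrd1: its means were 1356 ± 201 and 1478 ± 239, against 11130 ± 2130 and 9324 ± 3590 in dko leg and 9841 ± 1090 and 29380 ± 2810 in dko heart (SD, n = 3 each). Spread was not even, either. Ankrd1 in mdx leg had an SD of 48.3% of its mean and Ankrd2 in mdx leg one of 42%, against 8.65% for Ankrd1 in mdx heart.

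The genes with the most similar profile were found by the root mean square difference between the 6 centred group means on the log2 scale, a description over 6 groups in which tissue carries most of the differences. Because they were chosen on these same group means, directions that they share with a member follow in part from the choice. Their adjusted p-values are given as description only. For Ankrd1 the nearest was Rrad (0.61), which encodes a small GTPase that restrains voltage-gated calcium channels. Rrad read 7034 ± 2770 in dko leg and 3569 ± 1890 in mdx leg, 20990 ± 6860 and 23010 ± 2860 in dko and mdx heart, and 1474 ± 563 and 1101 ± 292 in dko and mdx extraocular muscle. Like Ankrd1 it was higher on average in dko leg without passing (log2 difference 1.02, limma adjusted p = 0.594, and 0.0758 with the block). Its extraocular difference was 0.35, against 1.54 for Ankrd1. Next came Myl3, the myosin light chain of slow fibres and ventricle (0.91), the desmosomal Pkp2 (0.92), Myom2 (1.04) and Csrp3, the muscle LIM protein of the Z-disc (1.09).

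For Ankrd2 the 5 nearest were close together at 0.53 to 0.63 and all were higher in leg than in heart, which the choice by profile favours. The closest was Cacng1, the gamma subunit of the skeletal muscle calcium channel, with 13620 ± 5600 in dko and 10190 ± 4390 in mdx leg but 255.1 ± 133 and 221.7 ± 107 in dko and mdx heart. It was followed by Phlda3, an inhibitor of Akt signalling (0.60), the secreted C1qtnf3 (0.61), the calcium-binding S100a4 (0.62) and the protease inhibitor Serpinb6a (0.63). All 5 read higher in dko extraocular muscle, with log2 differences of 0.47 to 1.15 against 0.065 for Ankrd2, and only S100a4 (1.15) passed there, with the block (limma adjusted p = 0.0316; 0.181 without it). C1qtnf3 and S100a4 rose in dko leg with the block (log2 differences 1.54 and 0.78, limma adjusted p = 0.0289 and 0.0476), but not without it (0.0856 and 0.338). For Myom2 only Smyd2, a lysine methyltransferase of muscle, was nearer than 1.0 (0.73). Smyd2 averaged 147.3 ± 106 in dko against 44.87 ± 23.3 in mdx extraocular muscle, and 891.8 ± 524 and 1179 ± 388 in dko and mdx leg. The other neighbours of Myom2 were Ankrd1, Plekho1, Csrp3 and Ptp4a3 (1.04 to 1.07).

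**Figure D3:**
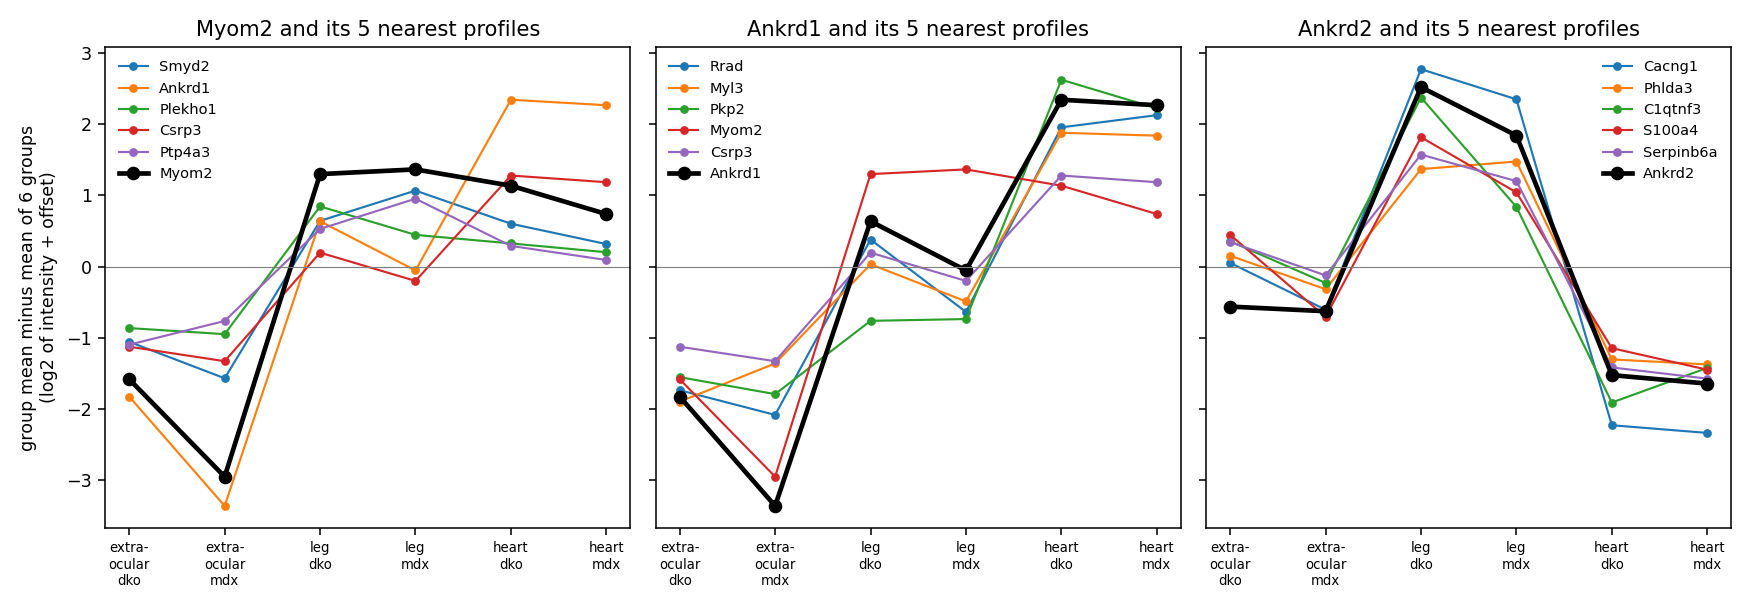
Group means of each gene (black) and of its 5 nearest genes, in log2 of intensity plus offset, each minus its own mean over the 6 groups, with dko left of mdx in each tissue. The low mdx extraocular point of Myom2 and Ankrd1 lies under most of their neighbours, and the dko extraocular point of Ankrd2 (-0.56) lies under those of all 5 of its neighbours.

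No gene from 4 lists of partners and mechanically induced genes passed between the genotypes in any tissue. The first list covers the complex of the muscle ankyrin repeat proteins with the titin spring, including partners of the ankyrin repeat proteins that are not titin partners. Of its genes 5 of 12 had a tested probe set of their own (Capn3, Des, Ybx1, Casq2 and Pml). Of these 0 passed in any tissue, with or without the block. Their median log2 difference between dko and mdx was 0.28 in extraocular muscle, 0.25 in leg and -0.08 in heart, against -0.006, -0.04 and -0.012 over all probe sets. In leg the largest of them were Ybx1 (0.57), a cold shock protein that binds Ankrd1, Capn3 (-0.47), the muscle calpain anchored to titin, and Casq2 (0.36), the cardiac and slow-fibre calsequestrin. In extraocular muscle they were Pml (0.32), Casq2 (0.30) and Ybx1 (0.28). In heart they were Des (-0.16), Ybx1 (-0.15) and Casq2 (0.13).

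Among 8 genes tested from the M-band list 0 passed in any tissue, with medians of 0.042 in extraocular muscle, 0.10 in leg and 0.022 in heart. Myom1, which encodes myomesin, the M-band crosslinker of all striated fibres, averaged 18190 ± 896 in dko against 17200 ± 3310 in mdx extraocular muscle (SD, n = 3 each), a log2 difference of 0.098. This stands beside the 1.37 of Myom2 in the same samples, and Myom1 was bright in all 6 groups, from 14720 ± 3270 in mdx heart upwards. In extraocular muscle the largest differences were Mybpc3 (-0.91), the cardiac myosin-binding protein C, Fhl2 (0.37), a LIM protein of heart that binds titin, and Mybph (0.29), a thick filament protein. In leg they were Fhl2 (0.56), Mybpc3 (0.54) and the mitochondrial creatine kinase Ckmt2 (-0.19), and in heart Myom1 (0.19), Mybph (-0.16) and the muscle creatine kinase Ckm (0.10), whose other probe set had the opposite sign.

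Of 16 genes tested from the Z-disc and stretch list 0 passed in any tissue (medians 0.041 in extraocular muscle, 0.086 in leg and -0.03 in heart). The largest in leg were the fast-fibre actinin Actn3 (1.45; 18060 ± 3360 in dko and 16800 ± 20100 in mdx), whose other probe set had the opposite sign, the actinin Actn2 (-1.11) and the LIM protein Pdlim1 (0.66), for which another probe set also had the opposite sign. In extraocular muscle they were Actn2 (-1.18), the natriuretic peptide Nppb (-0.56) and the Z-disc protein Nrap (0.38). In heart they were the titin cap Tcap (-0.57), Pdlim3 (0.22) and the chaperone partner Bag3 (-0.20), whose other probe set had the opposite sign.

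Of 15 genes tested from the list of YAP-TEAD and mechanically induced genes 0 passed, although 12 of 15 were positive in leg (median 0.20; 0.036 in extraocular muscle and -0.018 in heart). Ccn2, connective tissue growth factor and a usual target of YAP and TEAD, had the largest difference in leg (4204 ± 1960 in dko and 1222 ± 209 in mdx; 1.54, limma adjusted p = 0.309 and 0.0814 with the block). It also had the largest in heart (10750 ± 3450 and 4948 ± 1160; 1.07, adjusted p = 1 and 0.84). In extraocular muscle, where Ankrd1 had its largest difference, Ccn2 differed by -0.007 (3167 ± 1250 in dko and 3050 ± 687 in mdx). Next in leg were the factor Tead1 (0.80) and the stress-induced Atf3 (0.49), and in heart Tead2 (-0.62) and Tead1 (0.49). In extraocular muscle the largest were Atf3 (0.37), the YAP regulator Amotl2 (-0.29) and the matrix protein Ccn1 (-0.25).

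Between leg and heart some genes of the same lists differed, where 10.7% of all probe sets passed in dko and 9.97% in mdx (23.5% and 22.8% with the block). From the list of the ankyrin repeat and titin complex 1 of 5 was higher in leg in each genotype, Capn3 (1.94 in dko and 2.33 in mdx). With the block 2 of these 5 were higher and 1 lower in dko and 1 and 1 in mdx. From the M-band list 2 of 8 were higher in leg, Mybph (3.27 and 2.97) and Ckm (1.55 and 1.59), whose other probe set had the opposite sign in both genotypes, and 2 were lower, Fhl2 (-4.76 and -5.40) and Mybpc3 (-4.97 and -5.57). With the block 2 were higher and 2 lower in dko and 3 and 2 in mdx. Myom1 did not pass (0.10 and 0.12). From the Z-disc list 3 of 16 were higher in leg, among them Myoz1 (4.73 and 5.15), a fast-fibre Z-disc protein, and 4 were lower, among them Csrp3 (-1.08 and -1.39) and Nppb (-5.95 and -5.72), in each genotype; with the block 7 were higher and 4 lower in dko and 5 and 4 in mdx. From the YAP-TEAD list 4 of 15 were higher and 3 lower in dko leg than in dko heart, and 3 and 3 in mdx (with the block 4 and 3 in dko and 5 and 3 in mdx), with Ccn2 (-1.40 and -1.86), Amotl2 (-1.60 and -1.56) and the kinase Lats2 (-0.62 and -0.77) lower in leg in both.

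**Figure D4:**
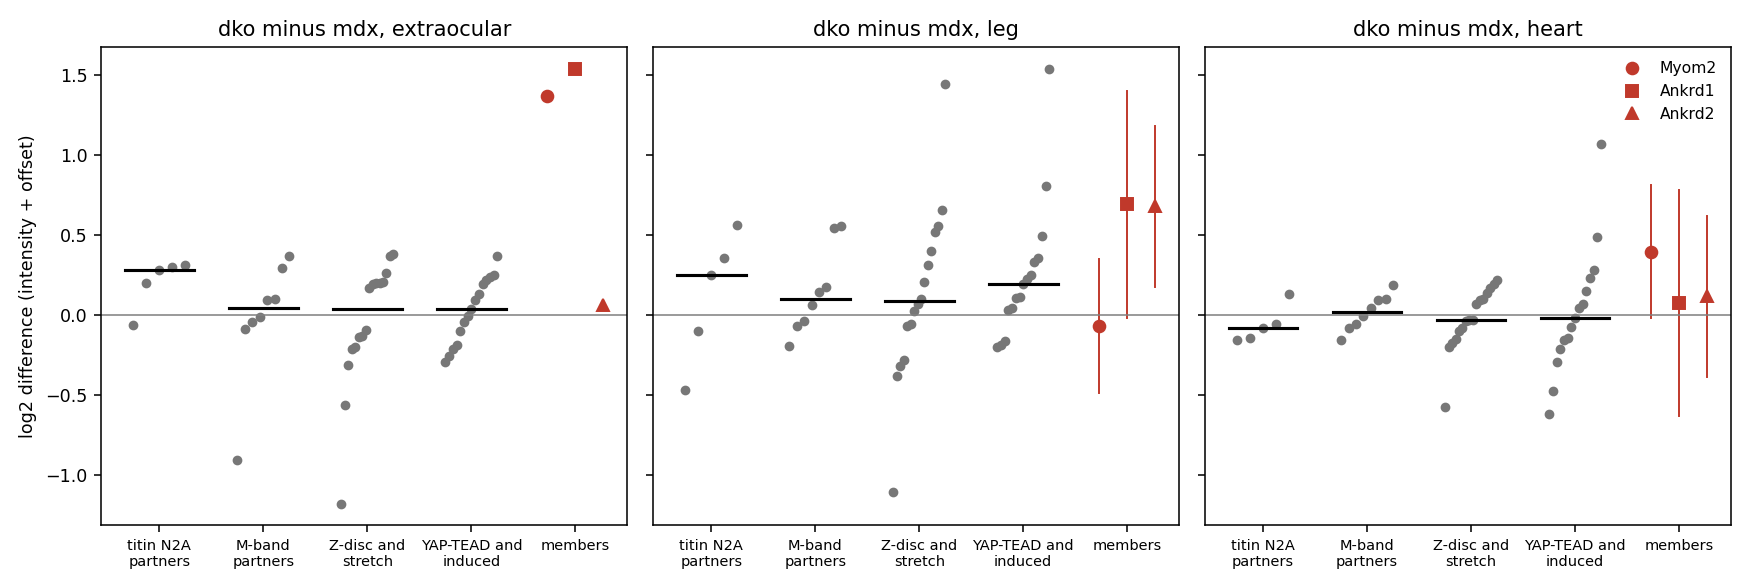
Log2 difference between dko and mdx for each gene of the 4 lists (grey points, black bars for list medians) and for the 3 members (red), by tissue, with 95% intervals of the members in leg and heart only. In leg and heart the members lie among the list genes, and their extraocular points (1.37 for Myom2, 1.54 for Ankrd1 and 0.065 for Ankrd2) are the values on which they were chosen.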

How the data were processed

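The deposited table gives a linear intensity for every probe set and array; the authors had scaled each array before deposit, as read from the values (means with 2% trimmed from each tail of 1500.69 to 1501.15), and the labels name a standard Affymetrix protocol. The software and its version are not given in the sources used here. All 18 columns were matched to samples, and 0 columns were of other origin. Gene symbols came from the supplied platform table. Members were all probe sets with that single symbol. The members and lists were chosen with earlier results of these data known.

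The 66 control probe sets were left out. A probe set was tested if 3 or more arrays read it above their own 40th percentile, which kept 8888 probe sets and all 3 members. After adding 166.7 (the median of the arrays' 25th percentiles) and taking log2, limma 3.58.1 (R 4.3.3) was used to fit 6 group means (12 residual degrees of freedom), two-sided, with Benjamini-Hochberg adjustment over all probe sets and a threshold of 0.05. The fit was tried, without and with the block on replicate number, on simulated data with independent noise for each array. These data lack the shared deviations of arrays with the same number, so the trial does not show how the fits behave under them. Genes of lists were represented by their brightest probe set. Named list genes were those called, or else the 3 with the largest difference in a tissue, and the 5 nearest profiles of each member. The array medians are those of scaled values and do not measure the amount of RNA or signal, and 3 arrays per group limit the precision.

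Replicate numbers were taken as pairing the arrays. Deviations from group means correlated across genes at 0.404 to 0.751 (median 0.61) in all 9 dko-mdx pairs of the same tissue and number. Between tissues, the 36 combinations of arrays with the same number correlated nearly as much, at 0.327 to 0.74 (median 0.536). The correlation thus does not show that dko and mdx arrays of a tissue were paired. Pair counts, the exchange within pairs and p-values with the block rest on an assumed pairing. Each fit was repeated with the number as a block, within tissue for dko against mdx and common to all arrays for leg against heart. Offsets, scaling, filters and left-out arrays were also varied. Figures used matplotlib 3.10.9.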

Additional observations from a re-analysis of the deposited data

How the results depend on the processing

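Of 333 alternative values of the 18 tested differences, 327 kept their direction and their side of the threshold. The exceptions were Myom2 between leg and heart in mdx, which passed with the offset doubled (0.615), quantile normalization (0.628), the stricter filter (0.626) and the replicate block (0.626), and Myom2 between dko and mdx leg, which ran from -0.204 to 0.068 when single arrays were left out. The replicate block changed no other member's call in leg or heart. In extraocular muscle Ankrd2 ran from -0.021 to 0.15 without single arrays, and Myom2 moved to 1.16 with the doubled offset and to 1.69 with values floored at 20 and no offset. Ankrd1 moved there to 1.29 with the doubled offset and to 1.92 with the floor, and ran from 1.26 to 1.76 without single arrays. Counts of probe sets called moved more. In leg the 5 became 107 with the block, 9 with the doubled and 3 with the halved offset, 1 with the floor, 0 in a fit of leg arrays alone or with arrays 1 and 2 only, and 1 to 17 without single arrays. In extraocular muscle the 2 became 14 with the block and 0 with scaling to the 75th percentile, with the tissue alone, with arrays 1 and 2 only or without any 1 array. For leg and heart together the 1 became 7 with the block and 0 with the floor, with the 2 tissues alone or with arrays 1 and 2 only, and for the difference between them 0 became 6 with the block. Between leg and heart the 951 in dko and 886 in mdx became 2093 and 2026 with the block (1336 in mdx with the block and without the arrays numbered 3). The cause of these moves was not tested. Leaving out the arrays numbered 3, and the block without each number, were chosen after seeing the data.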
